A study of Mus musculus with 14 samples.

Results

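Adipokines are the signalling proteins that fat cells release, and 10 of their genes are described here across 3 fat depots and 2 diets: Lep, Adipoq, Retn, Cfd, Rbp4, Rarres2, Nrg4, Nampt, Metrnl and Apln. They were taken by symbol from the 38553 genes of the deposited tables, and all 10 were among the 14959 genes expressed highly enough to be tested. Leptin is the hormone by which fat mass is reported to the hypothalamus, and adiponectin is an insulin-sensitising hormone made in large amounts by fat cells. Resistin, adipsin, retinol-binding protein 4 and chemerin are further abundant products of mouse fat, while neuregulin 4, visfatin, meteorin-like and apelin are made by fat and also by other tissues. In obesity, circulating leptin is known to rise with fat mass, whereas adipsin is known to be low in several obese mouse models.

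The mice were male C57BL/6 animals given chow (called the normal diet here) or a high-fat diet, product D12492, for 16 weeks from weaning at 3 weeks of age, and no genetic change was named in the labels. Fat was digested in collagenase, for 20 min in the white depots and 40 min in the brown one, and the floating adipocyte layer was taken for poly(A) RNA sequencing. Each library pooled tissue of 3 to 5 mice, so the spread between libraries is that between pools. The epididymal (visceral) and inguinal (subcutaneous) white depots had 3 libraries on each diet, numbered 0, 1 and 2, and interscapular brown fat had 1 library on each diet and therefore no replicate error and no test. Values are FPKM, mapped fragments corrected for library size and for transcript length. Sequencing depth is not known from these tables. Gene coordinates were taken from RefSeq (build GRCm38.p6).

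The layer was rich in adipocyte transcripts in all 14 libraries, but other cells contributed and their share differed between groups. The summed level of 9 adipocyte markers (such as Plin1, Fabp4 and Lipe) was 16613 to 29879 FPKM in 10 of the 12 white libraries, and 10985 and 15494 FPKM in inguinal normal-diet replicates 0 and 2. Those replicates carried 537 and 726 FPKM of 9 lymphocyte markers, replicate 1 of that group carried 62.3, and the other 9 white libraries 3.33 to 14.9. Replicates 0 and 2 also differed from replicate 1 in erythroid markers (327 and 1329 against 72.3 FPKM). Mitochondrial transcripts took 52.1% and 60.7% of their protein-coding FPKM, against 20.6% in replicate 1. In epididymal libraries that share was 40.3% to 66.7% on the normal and 26.9% to 37.0% on the high-fat diet. The 11 macrophage markers summed to 1302 to 2309 FPKM in epididymal high-fat libraries against 480.5 to 962 on the normal diet, and the 7 endothelial markers to 28.6 to 65.3 against 331 to 419. The brown label was met by Ucp1, at 121 FPKM in the normal-diet library and 503 FPKM in the high-fat one, and by Zic1, which was listed at 0 in 10 of the 12 white libraries. All 8 brown markers summed to 469 and 1585 FPKM in these libraries and to 10.1 to 297 FPKM in the white ones, with the highest white sum in an inguinal high-fat library. In bulk libraries such as these, fewer cells of a type and less RNA per cell cannot be told apart.

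**Figure D1:**
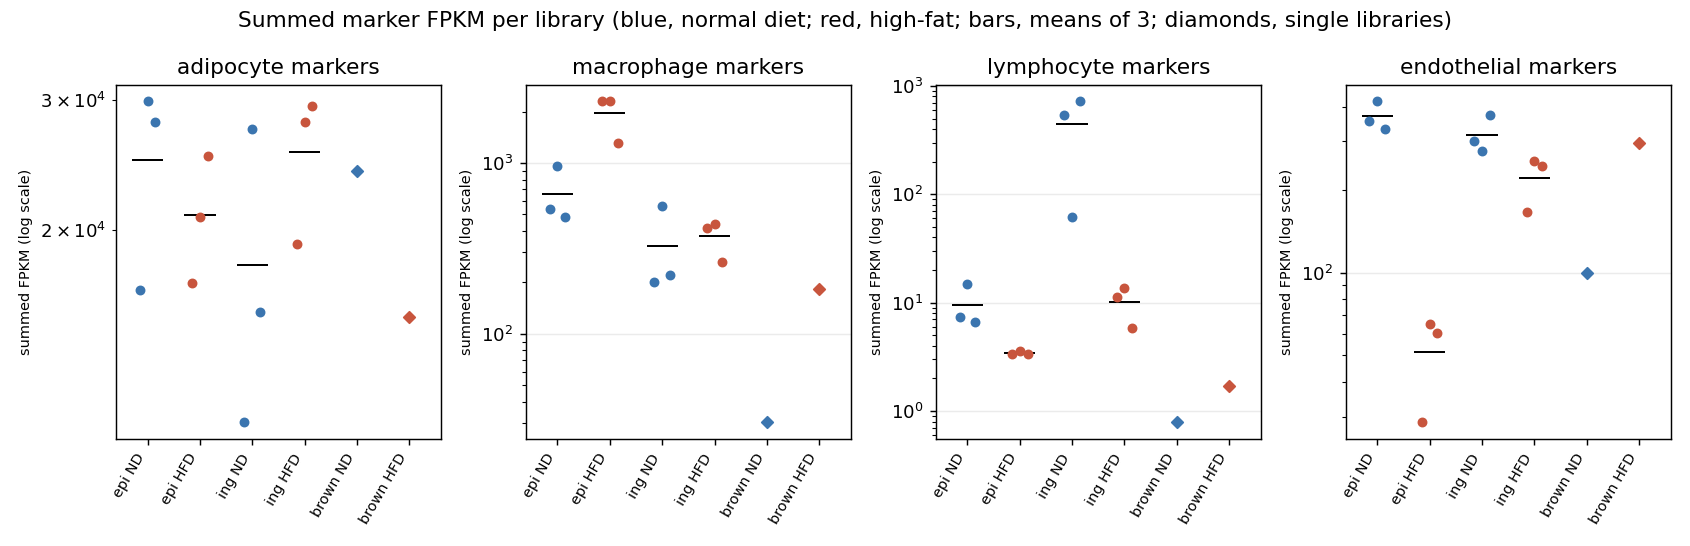
Summed FPKM (log axis) of 4 marker lists in each library, with blue for the normal and red for the high-fat diet, bars for means of 3 and diamonds for the single brown libraries. Lymphocyte markers stood highest in 2 inguinal normal-diet libraries (537 and 726 FPKM), and endothelial markers were lowest in the epididymal high-fat libraries (28.6 to 65.3 FPKM).

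The 250 bases before the start of 3 of the genes are shown first, because Lep and Cfd took opposite courses on the high-fat diet and Adipoq passed the test in neither depot. They are RefSeq sequences of GRCm38.p6, written 5′ to 3′ on the plus strand, which is the strand of all 3 genes. Capitals mark every match, on either strand, to 5 motifs: the C/EBP palindrome TTGCGCAA, the CCAAT box (CCAAT or ATTGG), the GC box (GGGCGG or CCGCCC), the TATA core (TATAAA or TTTATA) and its variant (TATAAG or CTTATA). The windows are chr6:29059971-29060220 for Lep, chr16:23146286-23146535 for Adipoq and chr10:79890603-79890852 for Cfd.
Lep: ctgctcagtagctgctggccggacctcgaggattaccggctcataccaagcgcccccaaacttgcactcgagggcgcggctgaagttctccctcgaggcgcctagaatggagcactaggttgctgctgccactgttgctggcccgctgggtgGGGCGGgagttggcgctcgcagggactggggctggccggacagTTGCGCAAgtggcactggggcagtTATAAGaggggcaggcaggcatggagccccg
Adipoq: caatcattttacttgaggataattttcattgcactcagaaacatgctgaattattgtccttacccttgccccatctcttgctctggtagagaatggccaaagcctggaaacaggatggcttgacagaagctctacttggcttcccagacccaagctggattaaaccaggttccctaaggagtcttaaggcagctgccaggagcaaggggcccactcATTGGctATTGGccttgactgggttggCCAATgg
Cfd: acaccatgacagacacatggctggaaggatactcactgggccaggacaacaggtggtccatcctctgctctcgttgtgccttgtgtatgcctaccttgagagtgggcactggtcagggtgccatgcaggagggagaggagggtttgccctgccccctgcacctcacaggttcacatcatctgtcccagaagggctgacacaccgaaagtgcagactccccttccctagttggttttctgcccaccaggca

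The Lep window held TTGCGCAA with its first base 55 bases before the start, a GC box at 98 bases and TATAAG at 31 bases. Of 32851 RefSeq promoter windows of the same length, 54 (0.164%) held TTGCGCAA on either strand, and Lep was the single adipokine gene among those with a window that did. The GC box was present in 32.7% of all windows and TATAAG in 6.65%. The Adipoq window held 3 CCAAT boxes, starting 34, 27 and 7 bases before the start, and 33.8% of all windows held at least 1. The Cfd window held none of the 5 motifs as spelled here, as did those of Retn and Nrg4. These matches describe letters in a window, and binding was not tested.

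With high-fat feeding, leptin mRNA rose several-fold in both white depots and was the member with the largest increase in each. Lep (ENSMUSG00000059201, chr6:29060221-29073876) stood at 191, 210.4 and 213 FPKM in the 3 epididymal normal-diet libraries and at 1415, 1422 and 1675 FPKM in the 3 high-fat ones. In inguinal adipocytes it was 98.1, 207 and 87.6 FPKM in normal-diet and 1230.2, 1394 and 1184 FPKM in high-fat libraries. In both depots every high-fat library was far above every normal-diet library. The mean rose 7.34-fold in epididymal adipocytes (log2 difference 2.87 ± 0.28, SE, limma adjusted p = 3.9e-05) and 9.7-fold in inguinal ones (3.38 ± 0.28, adjusted p = 3.8e-05). Log2 differences throughout are of log2(FPKM + 0.5), adjusted over all genes tested.

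In rank, Lep moved from place 181 to 526 among the protein-coding genes outside the mitochondrial genome on the normal diet to place 16 to 27 on the high-fat diet, over both white depots. The diet effect of Lep did not differ detectably between depots (difference of log2 differences -0.51 ± 0.40, SE, limma adjusted p = 0.51). Without inguinal normal-diet replicate 1, whose Lep of 207 FPKM was at the epididymal level, that difference was -0.89 with an adjusted p of 0.019. Lep was then higher in epididymal than in inguinal normal-diet adipocytes (log2 1.14, adjusted p = 0.00091, against 0.75 and 0.13 with all libraries). Without replicates 0 and 2 instead, which left 1 library in that group, the difference was 0.26 and the normal-diet depot value -0.016. Rescaling each library to the 9 adipocyte markers, added after seeing the data, put the difference at 0.11.

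Adiponectin mRNA passed the test in neither depot. Adipoq (ENSMUSG00000022878, chr16:23146536-23157968) was 1360.2, 1999 and 2386 FPKM in epididymal normal-diet libraries and 1515, 1443 and 2354 FPKM in high-fat ones. The inguinal libraries held 919, 2015 and 994 FPKM in normal-diet and 1521, 1811 and 2035 FPKM in high-fat libraries. The diets overlapped in both depots, and inguinal normal-diet replicates 0 and 2 were the lowest of the 12 libraries. The log2 difference was -0.11 ± 0.36 (SE, limma adjusted p = 0.88) in epididymal and 0.54 ± 0.36 (adjusted p = 0.31) in inguinal adipocytes. Without inguinal normal-diet replicate 1 the inguinal value was 0.89 with an adjusted p of 0.037, and rescaling each library to the 9 adipocyte markers, an alternative added after seeing the data, turned it to -0.18.

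Both genes are made by adipocytes, and the ratio of Lep to Adipoq within a library does not depend on how libraries were scaled. Lep amounted to 14.0%, 10.5% and 8.94% of Adipoq FPKM in the epididymal normal-diet libraries and to 93.4%, 98.5% and 71.2% in the high-fat ones. In the inguinal depot the ratio was 10.7%, 10.3% and 8.82% on the normal diet and 80.9%, 77.0% and 58.2% on the high-fat diet. The inguinal normal-diet libraries, which differed more than 2-fold in Lep itself, were therefore close in this ratio. The geometric mean ratio was 7.92-fold higher on the high-fat diet in epididymal and 7.21-fold higher in inguinal adipocytes, with no overlap in either. The exact two-sided permutation test gave p = 0.1 for each, the smallest that 3 against 3 libraries can give (0.157 after Benjamini-Hochberg adjustment over the 36 ratios to Adipoq that were compared, 0.2 over the 4 of Lep). Between depots the ratio differed 1.11-fold on the normal diet (exact p = 0.5, adjusted 0.6 over the 36) and 1.22-fold on the high-fat diet (exact p = 0.3, adjusted 0.415), with overlapping libraries. Under an assumed pairing by replicate number, which no label states, the high-fat ratio was higher in the epididymal library of all 3 pairs. The log2 differences were 0.21, 0.36 and 0.29 (0.285 ± 0.075, SD, n = 3 pairs). The exact paired permutation test, added after seeing the data, gave p = 0.25, the smallest that 3 pairs allow.

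**Figure D2:**
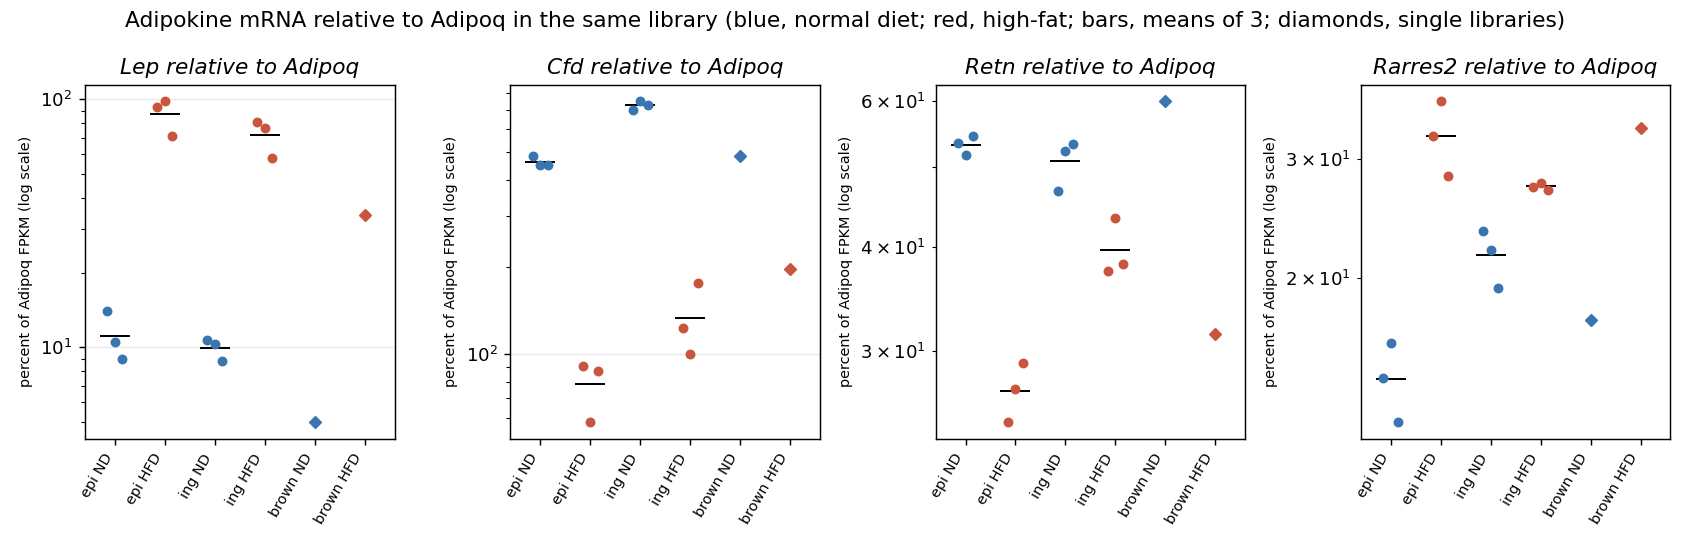
FPKM of Lep, Cfd, Retn and Rarres2 as a percentage of Adipoq FPKM in the same library (log axis), with blue for the normal and red for the high-fat diet, bars for means of 3 and diamonds for single brown libraries. The Lep ratio ran from 8.82% to 14.0% in white normal-diet libraries and from 58.2% to 98.5% in white high-fat libraries.

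Adipsin mRNA fell in both white depots. Cfd (ENSMUSG00000061780, chr10:79890853-79892655) encodes complement factor D, the serine protease that cleaves factor B in the alternative complement pathway. It was 6593, 8967 and 10779 FPKM in epididymal normal-diet libraries and 1369.5, 832 and 2054 FPKM in high-fat ones, and 6429, 15126 and 7208 FPKM against 1878, 1815 and 3587 FPKM in inguinal adipocytes. No high-fat library reached any normal-diet library of its depot. The mean fell 6.19-fold in epididymal adipocytes (log2 difference -2.70 ± 0.47, SE, limma adjusted p = 0.0017) and 3.95-fold in inguinal ones (-1.95 ± 0.47, adjusted p = 0.014). The inguinal call was lost with no filter on low genes (adjusted p = 0.087), with only the inguinal libraries in the fit (0.18), and without high-fat replicate 0 (0.054) or 1 (0.062).

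On the per-length scale Cfd took place 2 or 3 among protein-coding genes outside the mitochondrial genome in the 6 white normal-diet libraries. It stood at place 15 to 41 in epididymal and 6 to 12 in inguinal high-fat libraries. Relative to Adipoq, Cfd was 449% to 485% in epididymal and 699% to 751% in inguinal normal-diet libraries. On the high-fat diet it was 57.7% to 90.4% and 100% to 176%. In these libraries the ratio separated both the diets and the depots, where Cfd itself overlapped between depots. Each of the 4 comparisons gave the smallest exact two-sided permutation p that 3 against 3 libraries allow (p = 0.1, adjusted 0.157 over the 36 ratios compared), and the ratios of members other than Lep were chosen for the text after their values were seen.

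Resistin and retinol-binding protein 4 passed the diet test in neither depot as deposited. Retn (ENSMUSG00000012705, chr8:3655770-3659818), whose product opposes insulin action in mice, was 726, 1033 and 1299 FPKM in epididymal normal-diet libraries and 373, 389.9 and 684 FPKM in high-fat ones. The groups did not overlap, and the log2 difference of -1.10 ± 0.36 (SE) just missed the threshold (limma adjusted p = 0.054). It passed, among other settings, under TMM factors (0.019) and under rescaling to the adipocyte markers (0.0023). In inguinal adipocytes Retn was 430.4, 1053 and 529 FPKM in normal-diet and 568, 785 and 777 FPKM in high-fat libraries, which overlapped (log2 difference 0.18 ± 0.36, adjusted p = 0.77). The epididymal minus the inguinal diet effect was -1.27 ± 0.51 (SE, limma adjusted p = 0.16). That value passed under quantile normalization (0.022), non-mitochondrial rescaling (0.047) and array weights (0.015), and without inguinal normal-diet replicate 1 (0.020). As a share of Adipoq, Retn was 51.7% to 54.4% and 46.8% to 53.2% in the epididymal and inguinal normal-diet libraries, and 24.6% to 29.0% and 37.4% to 43.4% in the high-fat ones.

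Rbp4 (ENSMUSG00000024990, chr19:38116620-38125321), the blood carrier of retinol, was 186, 323 and 359.7 FPKM in epididymal normal-diet libraries and 263, 291 and 454 FPKM in high-fat ones. Inguinal libraries held 109, 207 and 181 FPKM in normal-diet and 155, 218 and 249 FPKM in high-fat libraries. The diets overlapped in both depots, with log2 differences of 0.23 ± 0.33 (SE, limma adjusted p = 0.70) and 0.34 ± 0.33 (adjusted p = 0.49). The 3 epididymal high-fat libraries all lay above the 3 inguinal ones (log2 0.68 ± 0.33, adjusted p = 0.25). With the replicate number as a block, the adjusted p was 0.036. That block was fitted over the white libraries of both diets, whereas the numbers were taken to pair the high-fat libraries only. The value is therefore not a test of paired high-fat libraries alone.

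Chemerin mRNA rose in epididymal adipocytes. Rarres2 (ENSMUSG00000009281, chr6:48569696-48572845) encodes this chemoattractant for macrophages and dendritic cells. It was 193, 320.5 and 290.4 FPKM in epididymal normal-diet libraries and 492, 528 and 666 FPKM in high-fat ones, a 2.1-fold rise without overlap (log2 difference 1.09 ± 0.31, SE, limma adjusted p = 0.028). The call was lost in 5 of the 6 fits that left out 1 epididymal library (adjusted p up to 0.11; it held without normal-diet replicate 1) and with no filter (0.052). In inguinal adipocytes Rarres2 was 216, 443 and 192 FPKM against 416, 502 and 549.6 FPKM, with 1 normal-diet library inside the high-fat range (log2 0.88 ± 0.31, adjusted p = 0.066). It passed with all libraries under TMM factors (0.032), quantile normalization (0.036), non-mitochondrial rescaling (0.024) and array weights (0.0058), and without that library, replicate 1 (0.0023). The replicate block also gave a pass (0.038), but the numbers were not taken to pair libraries of the 2 diets. Relative to Adipoq, Rarres2 was 12.2% to 16.0% and 19.3% to 23.5% in epididymal and inguinal normal-diet libraries, and 28.3% to 36.6% and 27.0% to 27.7% in high-fat ones. Rarres2 overlaps Lrrc61 in the annotation and the strand setting of the counting is not given in the sources used here, so its reads could be shared.

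Meteorin-like mRNA rose in the epididymal depot. Metrnl (ENSMUSG00000039208, chr11:121702427-121717389) encodes a secreted factor known to promote browning of white fat in mice. It was 6.52, 10.6 and 9.86 FPKM in epididymal normal-diet libraries and 59.2, 53.0 and 37.6 FPKM in high-fat ones, a 5.55-fold rise (log2 difference 2.41 ± 0.37, SE, limma adjusted p = 0.00075). Inguinal libraries held 5.60, 19.4 and 8.36 FPKM in normal-diet and 16.8, 16.9 and 12.6 FPKM in high-fat libraries, which overlapped (log2 0.63 ± 0.37, adjusted p = 0.25). All 3 epididymal high-fat libraries were above every other library of the series. The difference between the 2 diet effects was 1.79 ± 0.52 (SE) with an adjusted p of 0.060, which just missed the threshold. It passed under non-mitochondrial (0.049) or adipocyte-marker rescaling (0.026), and without inguinal normal-diet replicate 0 (0.024) or 1 (0.031). Without both 0 and 2, which left 1 library in that group, the log2 value was 2.75. The replicate block also gave a pass (0.045), but the numbers were not taken to pair libraries of the 2 diets. On the high-fat diet, epididymal exceeded inguinal Metrnl 3.23-fold (log2 1.65 ± 0.37, adjusted p = 0.014), a call lost without epididymal high-fat replicate 0 (0.066) or 1 (0.059) or inguinal high-fat replicate 2 (0.065). Macrophage markers were highest in the same 3 libraries (1302 to 2309 FPKM, against 201 to 962 in the other 9 white libraries), 5 of 11 of them rose there, and their part in the Metrnl result was not tested.

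Apelin mRNA moved in opposite directions in the 2 white depots. Apln (ENSMUSG00000037010, chrX:48025146-48034853) encodes the peptide ligand of the receptor Aplnr, made by fat cells and by endothelium. It was 3.72, 3.33 and 4.15 FPKM in epididymal normal-diet libraries and 1.26, 1.98 and 1.24 FPKM in high-fat ones, and it fell 2.5-fold (log2 difference -1.10 ± 0.24, SE, limma adjusted p = 0.0068). In inguinal adipocytes it rose 3.45-fold, from 2.01, 2.00 and 2.36 FPKM to 7.07, 9.40 and 5.53 FPKM (log2 1.55 ± 0.24, adjusted p = 0.0016). No group overlapped another: inguinal high-fat libraries were highest, followed by epididymal normal-diet, inguinal normal-diet and epididymal high-fat ones. The difference between the diet effects was -2.65 ± 0.34 (SE, adjusted p = 0.0028), and on the high-fat diet Apln was 4.91-fold lower in epididymal than in inguinal adipocytes (log2 -1.97 ± 0.24, adjusted p = 0.00078).

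The fold changes of Apln rest on levels of a few FPKM. Rescaling to the adipocyte markers kept the directions and ended these 3 calls at adjusted p = 0.067, 0.081 and 0.052 for the epididymal, inguinal and difference tests. The 7 endothelial markers all fell in epididymal adipocytes on the high-fat diet, from 331 to 419 FPKM in sum to 28.6 to 65.3, while in inguinal adipocytes, where their sum was 276 to 373 FPKM on the normal and 166 to 253 on the high-fat diet, all 7 missed the threshold. The part of endothelial RNA in the Apln result was not tested.

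Neuregulin 4 and visfatin passed no test in the white depots as deposited, and each passed under some other settings. Nrg4 (ENSMUSG00000032311, chr9:55220222-55283654) encodes a ligand of the receptor ErbB4 that is enriched in brown fat. It was 41.8, 51.0 and 49.5 FPKM in epididymal normal-diet and 31.4, 26.2 and 35.3 FPKM in high-fat libraries, without overlap (log2 difference -0.61 ± 0.29, SE, limma adjusted p = 0.17). This passed with only the epididymal libraries in the fit (0.034), with array weights (0.0067) and under adipocyte-marker rescaling (0.036). In inguinal adipocytes it was 35.5, 55.9 and 20.2 FPKM against 52.1, 58.4 and 65.1 FPKM, with an overlap (0.76 ± 0.29, adjusted p = 0.088). It passed with array weights (0.019) and without inguinal normal-diet replicate 1 (1.11, adjusted p = 0.0044). On the high-fat diet every epididymal library was below every inguinal one (log2 -0.91 ± 0.29, adjusted p = 0.069). That depot difference passed with only those 6 libraries in the fit (0.0076), with array weights (0.00096), and under non-mitochondrial (0.018) or adipocyte-marker rescaling (0.035). The diet effects had opposite signs and the difference between them was -1.37 ± 0.41 with an adjusted p of 0.067. It passed with array weights (0.0036), under non-mitochondrial rescaling (0.034) and without inguinal normal-diet replicate 1 (-1.72, adjusted p = 0.0038). Nrg4 overlaps Fbxo22 in the annotation, so the same caution on shared reads applies.

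Nampt (ENSMUSG00000020572, chr12:32820335-32853369), the rate-limiting enzyme of NAD salvage that is also secreted as visfatin, was 26.2, 22.0 and 32.9 FPKM in epididymal normal-diet and 17.5, 18.4 and 17.2 FPKM in high-fat libraries. These groups did not overlap (log2 difference -0.58 ± 0.23, SE, limma adjusted p = 0.11), and the difference passed under non-mitochondrial rescaling (0.037) and array weights (0.046). The inguinal values of 21.3, 27.3 and 14.3 FPKM in normal-diet and 16.9, 17.1 and 22.2 FPKM in high-fat libraries overlapped (-0.12 ± 0.23, adjusted p = 0.75), and their difference passed under adipocyte-marker rescaling (-0.82, 0.035), which lowered the median of all genes there to -0.63. Nampt overlaps the noncoding gene Gdap10 in the annotation.

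**Figure D3:**
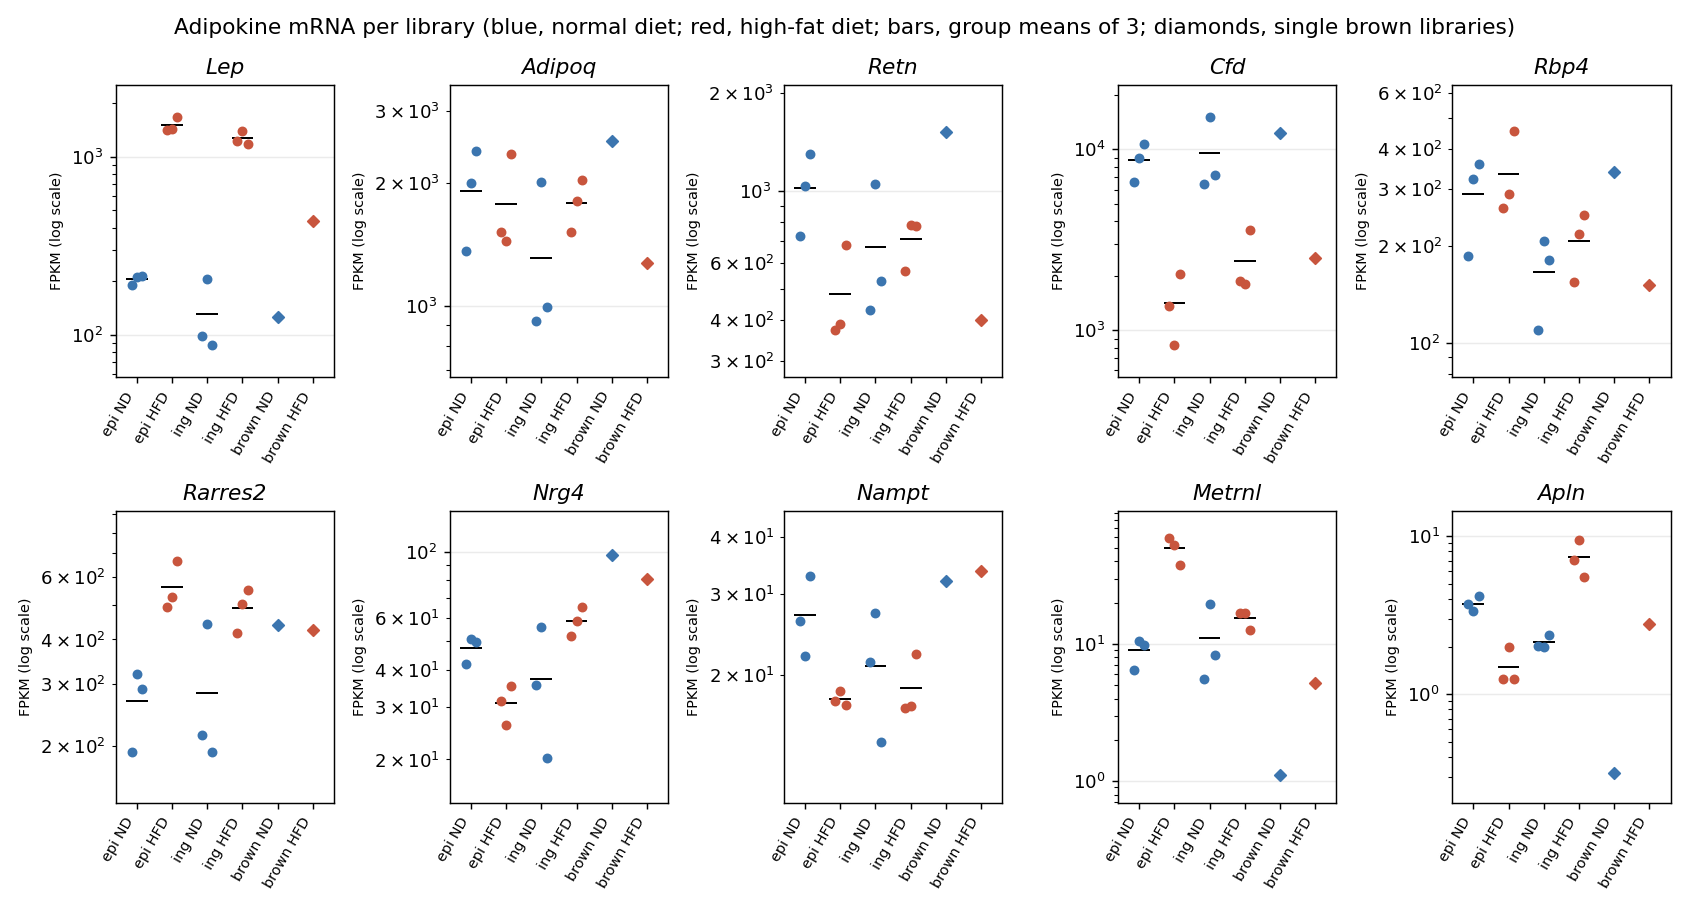
FPKM of the 10 adipokine genes in each of the 14 libraries (log axes that differ between panels), with blue for the normal and red for the high-fat diet, bars for means of 3 and diamonds for the single brown libraries. Lep separated the diets in both white depots (87.6 to 213 FPKM against 1184 to 1675 FPKM), Cfd did so in the other direction, and Apln was highest in inguinal high-fat libraries.

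Counted together, 3 adipokine genes rose (Lep, Rarres2 and Metrnl), 2 fell (Cfd and Apln) and 5 passed in neither direction in epididymal adipocytes, where 19.5% of all genes tested were called, 12.2% higher and 7.35% lower. In 8 of the 10 the diets did not overlap there, against 42.4% of all genes tested, and the median log2 difference was -0.34 against 0.07 over all genes. In inguinal adipocytes 2 rose (Lep and Apln), 1 fell (Cfd) and 7 passed in neither direction, with 19.5% of all genes called, 9.3% higher and 10.2% lower. The diets did not overlap in 3 of the 10 (33.1% of all genes), and the median was 0.58 against -0.01. Without inguinal normal-diet replicate 1, the library with the most adipocyte and the fewest lymphocyte transcripts of its group, 7 of the 10 were called there, as were 31.6% of all genes.

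Between depots, 0 of 10 passed on the normal diet by limma, where 6.51% of all genes were called, 2.36% higher and 4.15% lower in epididymal adipocytes. An unadjusted p under 0.05 was reached by 3 of the 10 and by 3591 of the 14959 genes tested. Without inguinal normal-diet replicate 1, 4 of 10 passed, as did 20.7% of all genes. On the high-fat diet Metrnl was higher and Apln lower in epididymal adipocytes, with 10.6% of all genes called, 7.08% higher and 3.53% lower, and the depots did not overlap for 5 of the 10 (38.4% of all genes). The diet effects differed between depots for Apln alone (7.22% of all genes called, 4.8% with the epididymal effect higher and 2.42% with it lower), and without inguinal normal-diet replicate 1 for 5 of the 10 (17.6% of all genes). Rescaling to the 9 adipocyte markers moved the median of all genes from -0.01 to -0.63 in the inguinal diet comparison, and the directions of Adipoq, Retn, Rbp4 and Metrnl there, none of which passed, turned under it. Of those 9 markers, 1 was itself called higher on the high-fat diet in epididymal and 2 in inguinal adipocytes. Their median log2 difference was -0.04 and 0.62, so a diet difference of the markers enters the rescaled inguinal values.

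**Figure D4:**
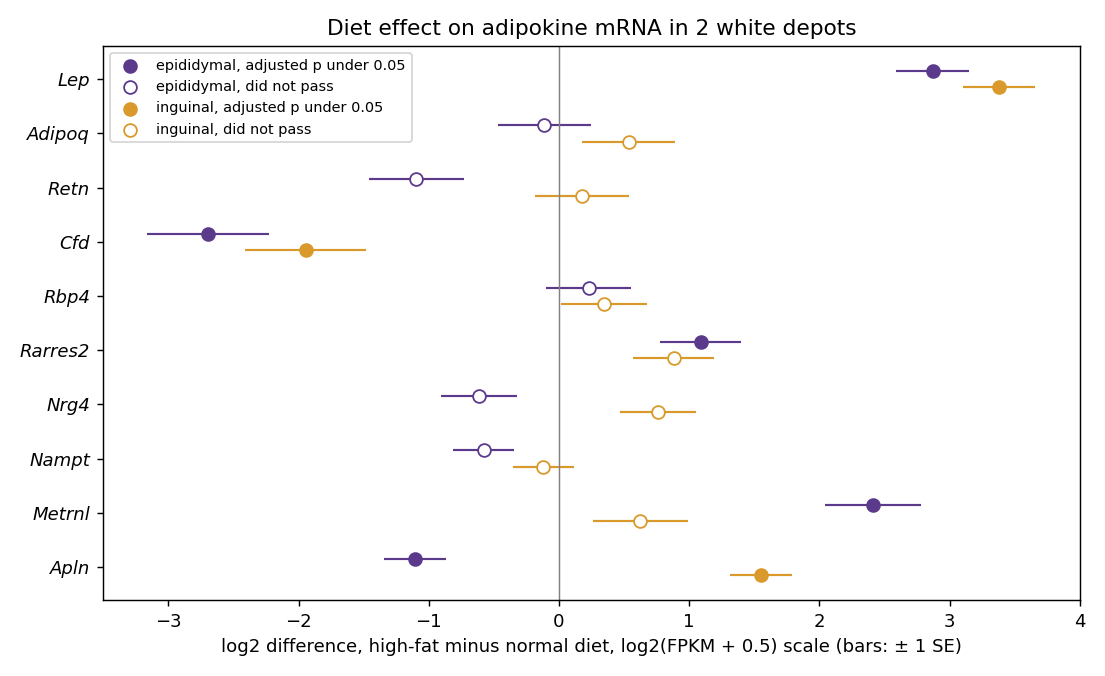
Log2 difference (high-fat minus normal diet, of FPKM + 0.5) of the 10 genes in epididymal and inguinal adipocytes, with bars of 1 SE and filled points where the limma adjusted p was under 0.05. Lep lay at 2.87 and 3.38 and Cfd at -2.70 and -1.95, while Apln lay at -1.10 in the epididymal and 1.55 in the inguinal depot.

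In the single brown libraries, 6 of the 10 differed by more than 2-fold between diets, against 17.6% of the 11518 genes with a mean of at least 1 FPKM. There were 3 higher and 3 lower on the high-fat diet, against 11.1% and 6.49% of those genes. Lep was 126 FPKM in the normal-diet and 435 FPKM in the high-fat library (log2 difference 1.79), Apln 0.318 and 2.79 FPKM (2.01) and Metrnl 1.11 and 5.22 FPKM (1.83). Retn was 1522 and 401 FPKM (-1.92), Cfd 12268 and 2521 FPKM (-2.28) and Rbp4 340.1 and 151 FPKM (-1.17). Adipoq, at 2536 and 1277 FPKM, lay just inside 2-fold (-0.99), and Rarres2 (439 and 427 FPKM), Nampt (32.1 and 33.7) and Nrg4 (97.6 and 81.0) stayed within 1.21-fold. Lep amounted to 4.97% of Adipoq on the normal and 34.1% on the high-fat diet. Rescaling to the adipocyte markers put Rbp4 inside 2-fold (-0.70, against -1.03 under non-mitochondrial rescaling) and kept Lep, Apln, Metrnl, Retn and Cfd past it. From the normal-diet to the high-fat library the adipocyte marker sum went from 23994 to 15255 FPKM. The macrophage sum went from 30.2 to 183 FPKM and the endothelial sum from 99.5 to 295. The part of these cells in the brown differences was not tested.

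Set beside the 6 white libraries of the same diet, brown Nrg4 was above their range and Metrnl below it on both diets, also after either rescaling. Nrg4 was 20.2 to 55.9 FPKM in white normal-diet and 26.2 to 65.1 FPKM in white high-fat libraries. On the high-fat diet brown Lep lay below the white range of 1184 to 1675 FPKM and brown Nampt above that of 16.9 to 22.2 FPKM. On the normal diet 3 of the 10 lay above and 2 below the white range, where 47.7% of genes with a mean of at least 1 FPKM lay outside it, 8.68% above and 39.1% below. On the high-fat diet 2 lay above and 4 below it, where 57.3% of genes lay outside, 8.13% above and 49.2% below. After rescaling to non-mitochondrial FPKM, 6 lay above on the normal diet (Adipoq, Retn, Rbp4, Nampt, Rarres2 and Nrg4; 12% of all genes) and 2 below (37.6%), and on the high-fat diet 2 lay above (18.2%) and 2 below (28.3%). After rescaling to the adipocyte markers these counts were 3 above (2.57% of all genes) and 3 below (57.5%) on the normal diet and 3 above (22.8%) and 2 below (19.9%) on the high-fat diet. Mitochondrial transcripts took 80.7% and 82.5% of protein-coding FPKM in the brown libraries and 20.6% to 66.7% in the white ones, and their part in these differences of level was not tested beyond the rescaling.

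The receptors and binding partners of the adipokines came from a list of 15 genes, 13 of which were tested. In epididymal adipocytes 3 rose, 3 fell and 7 passed in neither direction (19.5% of all genes called). Ccrl2, a cell-surface receptor that binds chemerin, rose from 1.92, 2.69 and 1.33 FPKM to 27.4, 16.3 and 15.4 FPKM (log2 difference 3.01 ± 0.33, SE, limma adjusted p = 9.4e-05). In inguinal adipocytes 1 of the 13 rose and 1 fell, against 9.3% and 10.2% of all genes. There Ccrl2 rose from 1.97, 1.62 and 3.35 FPKM to 9.03, 5.07 and 4.79 FPKM (1.27 ± 0.33, adjusted p = 0.021). It is also expressed by myeloid cells, whose markers were highest in the epididymal high-fat libraries. The signalling receptor of chemerin, Cmklr1, passed in neither depot (0.20 ± 0.38 and 0.21 ± 0.38).

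Cdh13, the cadherin that binds adiponectin, fell in epididymal adipocytes from 27.0, 40.5 and 25.5 FPKM to 1.25, 4.98 and 4.73 FPKM (log2 difference -3.06 ± 0.46, SE, limma adjusted p = 0.00069). Inguinal Cdh13 was 14.2, 15.6 and 32.3 FPKM in normal-diet and 11.2, 22.2 and 24.2 FPKM in high-fat libraries (-0.09 ± 0.46, adjusted p = 0.92). The apelin receptor Aplnr fell from 13.9, 7.08 and 12.5 FPKM to 2.45, 4.11 and 2.51 FPKM in epididymal adipocytes (-1.71 ± 0.30, adjusted p = 0.0017), so apelin and its receptor both fell there. Kit fell as well (-1.35), while Cap1, a resistin-binding protein in human cells, rose from 44.8, 62.1 and 56.0 FPKM to 109, 109 and 90.4 FPKM (0.92) and the low Stra6l, a receptor for RBP4 in mice, rose (2.20). Cdh13 and Aplnr are also expressed by endothelium, whose 7 markers fell in the same libraries, and the part of endothelial RNA in their fall was not tested. Adipor1 and Adipor2, the signalling receptors of adiponectin, passed in neither depot, with log2 differences between -0.20 and 0.23, and the leptin receptor gene Lepr, which averaged at most 1.35 FPKM in any white group, was the 1 list member that fell in inguinal adipocytes (-1.60 ± 0.52, adjusted p = 0.048). Cmklr1, Adipor1, Adipor2 and Lepr were named for their roles after their values were seen.

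Of 10 tested genes of the adiponectin family and its assembly, 1 rose and 1 fell in epididymal adipocytes, near the share of all genes (12.2% higher, 7.35% lower). Ero1l, an oxidoreductase of the endoplasmic reticulum that promotes adiponectin secretion, rose from 8.68, 7.39 and 7.72 FPKM to 12.3, 11.2 and 12.7 FPKM (log2 difference 0.57 ± 0.17, SE, limma adjusted p = 0.031). C1qtnf9, an adiponectin paralog, fell from 22.7, 26.2 and 29.3 FPKM to 2.93, 8.01 and 6.14 FPKM (-2.19 ± 0.35, adjusted p = 0.0010). In inguinal adipocytes 1 of the 10, C1qtnf5, rose (1.46 ± 0.35, adjusted p = 0.015), where 9.3% of all genes were called higher. Among 5 tested paralogs and partner ligands, Rbp7, a retinol-binding protein inside cells that is marked by high expression in fat endothelium, fell in epididymal adipocytes from 93.8, 247 and 123 FPKM to 3.28, 12.7 and 12.5 FPKM (-4.04 ± 0.52, adjusted p = 0.00025). The resistin paralog Retnlg fell in the inguinal depot (-2.79 ± 0.79, adjusted p = 0.028), where it was listed at 0 in 2 of 3 high-fat libraries.

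Of 7 other tested genes of the alternative complement pathway, in which adipsin acts, 3 rose and 4 passed in neither direction in epididymal adipocytes, where 12.2% of all genes were called higher. In inguinal adipocytes 1 of the 7 rose and 1 fell, against 9.3% and 10.2% of all genes. Cfb, the substrate of adipsin, rose from 59.2, 107 and 93.5 FPKM to 403, 379 and 471 FPKM in the epididymal (log2 difference 2.30 ± 0.34, SE, limma adjusted p = 0.00064) and from 79.5, 226 and 98.4 FPKM to 237, 291 and 299 FPKM in the inguinal depot (1.18 ± 0.34, adjusted p = 0.032). The receptors C3ar1 (2.62) and C5ar1 (2.49), both found on myeloid cells, rose in the epididymal depot. Cfd therefore fell and Cfb rose in both depots.

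Around Nampt, 1 of 10 tested genes of NAD metabolism rose and 1 fell in epididymal adipocytes, and 1 rose and 4 fell in inguinal ones. Of all genes, 12.2% were called higher and 7.35% lower in the epididymal and 9.3% and 10.2% in the inguinal depot, so the epididymal count was at the background. Cd38, an enzyme that consumes NAD, fell in both depots, from 18.1, 14.0 and 9.43 FPKM to 1.82, 2.03 and 1.74 FPKM in the epididymal (log2 difference -2.56 ± 0.31, SE, limma adjusted p = 0.00015) and from 25.3, 10.3 and 17.9 FPKM to 7.25, 6.00 and 5.22 FPKM in the inguinal depot (-1.38 ± 0.31, adjusted p = 0.0098). Parp1, which also consumes NAD, rose in the epididymal (0.82) and fell in the inguinal depot (-0.85). Nnmt, which methylates nicotinamide, rose (1.06) and Nmnat3, a mitochondrial enzyme of NAD synthesis, fell (-0.96) in the inguinal depot. Cd38 and Parp1 are expressed by lymphocytes too, and all 9 lymphocyte markers fell in the inguinal diet comparison.

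Of 19 tested further factors secreted by fat, 8 rose and 1 fell in epididymal adipocytes, and 6 rose and 2 fell in inguinal ones, against 12.2% of all genes higher and 7.35% lower in the epididymal and 9.3% and 10.2% in the inguinal depot. Sfrp5, an inhibitor of Wnt signalling, rose from 16.9, 39.4 and 14.1 FPKM to 244, 167 and 315 FPKM in the epididymal and from 3.64, 13.8 and 2.15 FPKM to 132, 140.4 and 137 FPKM in the inguinal depot (log2 difference 3.44 and 4.66). Gdf15, a stress-induced hormone that lowers appetite, rose in both (4.34 and 2.23), and angiotensinogen, Agt, fell in both, from 105, 178 and 201 FPKM to 33.3, 30.2 and 79.3 FPKM and from 10.8, 28.5 and 25.5 FPKM to 1.50, 3.09 and 4.89 FPKM (-1.84 and -2.59). Tnf rose in the epididymal depot (4.16), and Dpp4 fell in the inguinal depot (-3.21). Tnf is made by macrophages, 5 of whose 11 markers rose in the same epididymal libraries. Dpp4 is found on preadipocytes and T cells, and in the inguinal comparison all 9 lymphocyte markers fell, while of 6 fibroblast and preadipocyte markers 3 fell and 1 rose (sum 612 to 1506 FPKM on the normal and 739 to 911 on the high-fat diet). Of those 6, 4 fell in the epididymal depot, from a sum of 718 to 1160 FPKM to one of 243 to 305. The part of these cells in the Tnf and Dpp4 results was not tested.

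Of 9 transcription factors known to act on adipokine genes, Cebpb alone rose and Sp1 alone fell in epididymal adipocytes (12.2% and 7.35% of all genes). Cebpb went from 44.1, 49.1 and 35.8 FPKM to 161, 72.3 and 98.6 FPKM (log2 difference 1.28 ± 0.33, SE, limma adjusted p = 0.018) and in the inguinal depot from 54.7, 88.6 and 38.3 FPKM to 133, 86.0 and 95.6 FPKM, which overlapped (0.85 ± 0.33, adjusted p = 0.095). Sp1 fell by 0.63 and 0.95 on the log2 scale in the epididymal and inguinal depots (adjusted p = 0.0496 and 0.0087). Pparg and Cebpa, the regulators of adipocyte identity, passed in neither depot, with log2 differences between -0.22 and 0.47, and were named for their roles after their values were seen.

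**Figure D5:**
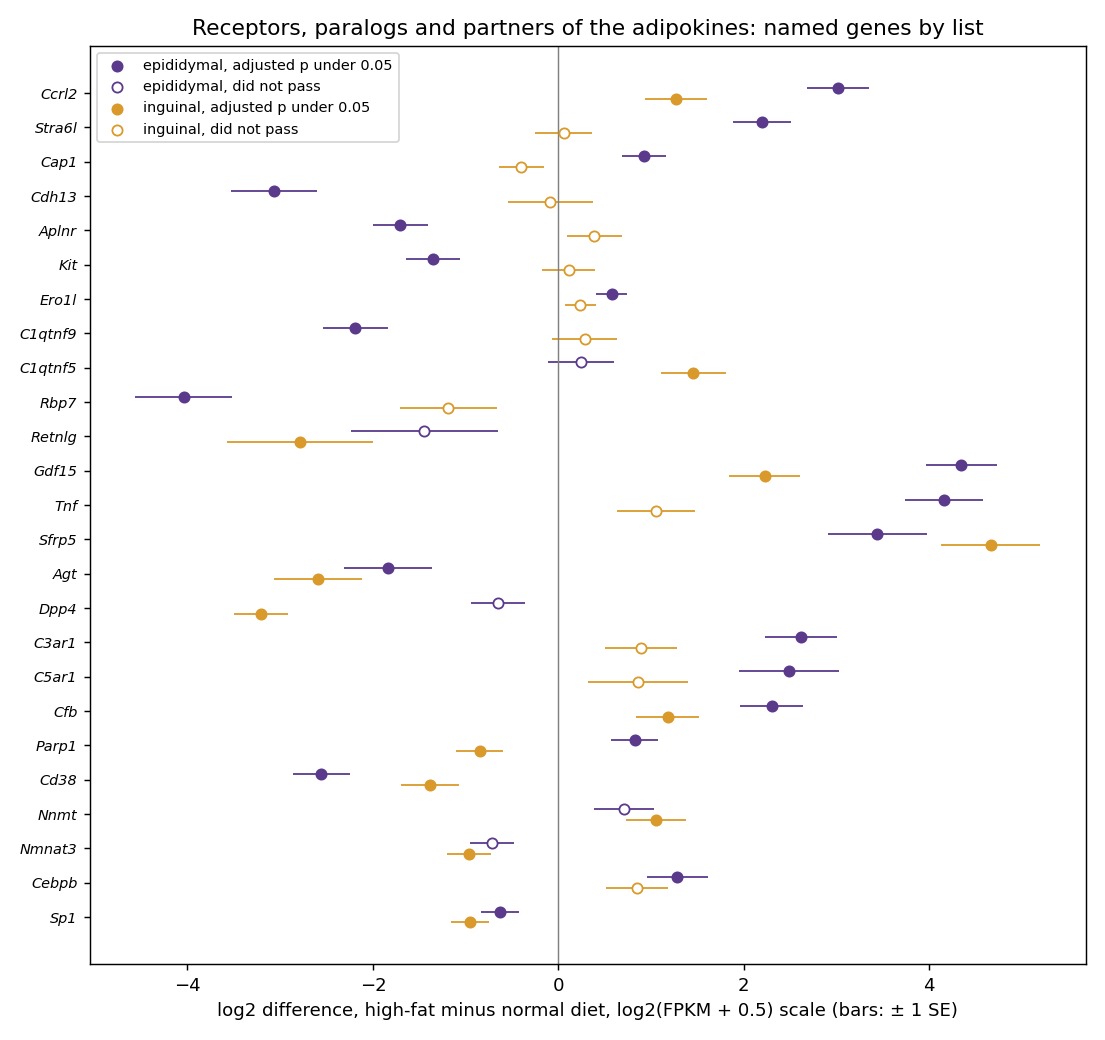
Log2 difference (high-fat minus normal diet, of FPKM + 0.5) of the receptors, paralogs and partners reported here, in epididymal and inguinal adipocytes, with bars of 1 SE and filled points where the limma adjusted p was under 0.05. Ccrl2, Gdf15, Sfrp5 and Cfb were higher and Agt, Cd38 and Sp1 lower in both depots, while Cdh13, Aplnr and C1qtnf9 were lower in the epididymal depot.

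Profiles most like each adipokine were sought over the 12 white libraries by the root mean square difference of log2(FPKM + 0.5) about each gene's own mean, a description without a test since the libraries share groups. Paqr9 (0.257), Gpc1 (0.303) and Fam20c (0.32) were nearest to Lep, whose own root mean square deviation was 1.61. Paqr9 was 9.98 to 10.1 FPKM in epididymal normal-diet and 75.9 to 100.4 FPKM in high-fat libraries. Tst (0.384), Srpx (0.39) and Slc43a1 (0.402) were nearest to Cfd, and Mfsd12 (0.203), Sirpa (0.249) and Lgmn (0.268) to Metrnl. Vash1 (0.343) and Casq2 (0.354) were nearest to Apln, and Vash1, like Apln, fell in the epididymal (log2 difference -0.76) and rose in the inguinal depot (1.33). Adipoq had closer neighbours in Pdzd2 (0.128), Cat (0.133) and Ndrg2 (0.135), against its own deviation of 0.428.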

How the data were processed

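Poly(A) RNA of the floating adipocyte layer was sequenced in 14 libraries. The deposited values are FPKM per gene, made by the authors with TopHat2 2.0.9 and Cuffdiff 2.1.1 on mm10, per the submitters' processing notes. The annotation, strand setting and normalization are not given in the sources used here. Read counts cannot be recovered from FPKM, so depth and counting error are unknown and the replicate libraries give the only measure of precision.

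Symbols were matched to 36638 of 38553 Ensembl identifiers. The members and lists were chosen with earlier results of these data known. Values of the 12 white libraries, as log2(FPKM + 0.5), were fitted with limma 3.58.1 in R 4.3.3 (trended eBayes), for genes with at least 0.5 FPKM in 3 of them, with 4 group means, 8 residual degrees of freedom and 5 contrasts. A two-sided Benjamini-Hochberg adjusted p under 0.05 over 14959 genes was a call. The limma fit was also run on simulated data with independent noise in each library. That simulation does not include cell content that differs between replicate libraries. Brown libraries entered no test, and 2-fold was counted there. Log2 differences understate the change of low genes.

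All 10 members were named, with up to 3 called genes each way of 7 lists per diet contrast (mean of at least 1 FPKM) and the 3 nearest profiles per member. Results on some single genes that the rule names are not reported here. Marker lists numbered 11. Replicate numbers come from the sample titles, and no label says what a number marks. Between the depots of high-fat mice, libraries that share a number deviated weakly together from their group means (correlations of 0.184, 0.111 and 0.146). Each other contrast had at least 1 correlation under 0.1, so the numbers were taken to pair the high-fat libraries only, as an assumption. Correlations between the diets, whose mice differ, reached 0.18 in the epididymal and 0.272 in the inguinal depot, so values of this size do not show a pairing. The main limma fit used no pairing. Alternatives were a filter of 2 FPKM or none, a pseudocount of 0.1 or 1, TMM factors (own code), quantile normalization, rescaling to non-mitochondrial protein-coding FPKM, array weights, a fit of the compared pair of groups, the replicate block, libraries left out, and, added after seeing the data, rescaling to the geometric mean of 9 adipocyte markers and pairing the high-fat libraries in the Lep to Adipoq ratio.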

Additional observations from a re-analysis of the deposited data

Results flagged for a closer look

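The diet effect on Apln differed between the white depots by a test of the difference itself: the epididymal log2 difference minus the inguinal one was -2.65 (limma adjusted p = 0.0028). The 3 epididymal libraries fell on the high-fat diet to 1.24 to 1.98 FPKM and the 3 inguinal ones rose to 5.53 to 9.40 FPKM. No white group of 3 libraries is large enough to test for a library that stands apart.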

How the results depend on the processing

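The calls of Lep, Cfd, Rarres2 and Metrnl in epididymal adipocytes kept their direction in each setting run. Leaving out 1 library at a time gave 4 to 5 members called for the epididymal diet effect, 2 to 7 for the inguinal one, 0 to 4 for depots on the normal diet, 1 to 2 on the high-fat diet and 1 to 5 for the difference of diet effects, with 7, 4 and 5 reached without inguinal normal-diet replicate 1. In those fits 31.6%, 20.7% and 17.6% of all genes were called. Array weights called 8, 6, 2 and 3 (both diet effects, the normal-diet depots, the difference), with 34.2%, 30.8%, 14.0% and 19.0% of all genes, so calls rose in general. Quantile normalization called 3 and 2 for the last pair (8.74% and 7.85% of all genes), non-mitochondrial rescaling 4 for the difference (7.73%), and leaving out inguinal normal-diet replicates 0 and 2 called 2 for it (5.03%). The replicate block called 1 between depots on the normal diet (Rbp4, adjusted p = 0.031, limma; 7.25% of all genes) and 2 for the difference (7.7%); those numbers share a label only, with correlations of 0.133, 0.0288 and 0.0761 on the normal diet. Why these moved was not tested.

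Each log2 difference of a member that turned had missed the threshold. Under quantile normalization they were -0.13 for Rbp4 (epididymal diet), -0.0709 for Adipoq (inguinal diet), 0.44 for Cfd and 0.0151 for Metrnl (depots, normal diet), 0.82 for Adipoq and 0.0961 for Cfd (depots, high-fat diet) and 0.0896 for Lep (difference). Without inguinal normal-diet replicates 0 and 2 they were, for inguinal diet, Adipoq -0.18, Retn -0.58, Rbp4 -0.0267 and Metrnl -0.33, for normal-diet depots, Lep -0.0159, Adipoq -0.11, Retn -0.0872, Nampt -0.0314 and Nrg4 -0.24, and for the difference, Lep 0.26, Adipoq 0.0706, Cfd 0.0193 and Rbp4 0.26. With rescaling to the adipocyte markers they were Adipoq -0.18, Retn -0.54, Rbp4 -0.37 and Metrnl -0.0538 (inguinal diet), Nampt -0.12 and Nrg4 -0.0565 (normal-diet depots), Adipoq 0.0566 and Nampt 0.0272 (high-fat depots) and Lep 0.11, Rbp4 0.50 and Nampt 0.15 (difference). TMM factors gave 0.00462 for Cfd and 0.0408 for Rarres2, and array weights 0.30 for Cfd, 0.34 for Rarres2 and 0.48 for Metrnl (normal-diet depots) and -0.19 for Rarres2 (difference). Non-mitochondrial rescaling gave -0.0377 for Rarres2 (high-fat depots) and put the median of all genes there at -0.15. With 1 library left out, some differences turned in at least 1 fit, and their ranges over all such fits follow. For epididymal diet they ranged from -0.34 to 0.066 (Adipoq) and -0.063 to 0.41 (Rbp4). For inguinal diet they ranged from -0.087 to 0.56 (Retn) and -0.37 to 0.089 (Nampt). They ranged from -0.28 to 0.34 (Cfd), -0.24 to 0.36 (Rarres2) and -0.51 to 0.34 (Metrnl) for normal-diet depots, from -0.26 to 0.088 (Adipoq) and -0.13 to 0.056 (Nampt) for high-fat depots, and from -0.41 to 0.16 (Rbp4) and -0.17 to 0.44 (Rarres2) for the difference. The log2 depot difference of the Lep to Adipoq ratio on the normal diet ranged from -0.0271 to 0.297. FPKM without counts leave the depth limit of the low Apln values unknown.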

Other observations

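The summed share of the 10 adipokine genes was larger on the normal diet, and in the white depots this came from Cfd. The description was chosen after its values were seen. Their summed FPKM was 3.28% to 3.87% of protein-coding FPKM outside the mitochondrial genome in epididymal normal-diet libraries and 1.25% to 1.87% in high-fat ones. In the inguinal depot it was 2.74% to 5.18% and 1.85% to 2.33%, and in the brown libraries 5.36% and 1.81%. Cfd alone took 2.14% to 4.09% in white normal-diet and 0.208% to 0.984% in white high-fat libraries. Lep took 0.026% to 0.067% and 0.325% to 0.396%. Without Cfd, the summed share was on average no smaller on the high-fat diet in either white depot.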
